A study of Homo sapiens with 47 samples.

Results

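A set of 9 genes of epithelial splicing and epithelial identity was followed through the differentiation of H9 (WA09) cells, an established human embryonic stem cell (hESC) line. The set holds *ESRP1*, *ESRP2*, *GRHL2*, *EPCAM*, *RAB25*, *ST14*, *SPINT1*, *SPINT2* and *TMEM30B*, taken by name from the 58051 Ensembl genes listed for each library, and all 9 were found and passed the filter on low counts. Bulk polyA RNA-seq was available for 47 libraries in 16 groups. Of these, 35 were whole cultures at 12 time points, from undifferentiated hESCs (t0) through 36 h of treatment to passages 1 to 10 (P1 to P10), and 12 were fractions of the P5 and P8 cultures enriched for epithelial (EPI) or mesenchymal (MES) cells. Each group held 3 independent differentiations (r1 to r3), except P9, for which 2 were analysed here. Every differentiated group was grown in N2B27 medium without vitamin A with the WNT agonist CHIR-99021, rhFGF2, the retinoic acid receptor inverse agonist AGN193109 and the ROCK inhibitor Y-27632, whereas t0 had not received them. The EPI fraction was labelled as neural progenitors and the MES fraction as neural crest (NC), and both were separated only by how readily the cells detached with TrypLE, so that each is an enrichment and not a pure population. The data come from 1 cell line, and the spread between replicates is the spread between differentiations of that line.

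Epithelial cells are held together by adherens, tight and desmosomal junctions and have separate apical and basal surfaces. GRHL2 is a grainyhead-like transcription factor that activates many epithelial genes, and ESRP1 and ESRP2 are RNA-binding proteins that direct the epithelial choice of exons in targets such as *FGFR2*, *CD44* and *ENAH*. EPCAM is a cell adhesion molecule of epithelia, RAB25 is an epithelial GTPase of recycling endosomes, and TMEM30B is a subunit of the flippases that move phospholipids between membrane leaflets. ST14 (matriptase) is a membrane serine protease of epithelia, and SPINT1 and SPINT2 are its Kunitz-type inhibitors. Undifferentiated hESCs grow as an epithelium that uses E-cadherin (CDH1), while neuroepithelium uses N-cadherin (CDH2). Repressors of the ZEB and SNAI families, which bind the E2 box sequence CAGGTG, are known to silence epithelial genes in cells that become mesenchymal.

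Promoter windows of 300 bases, from 250 before to 50 after the transcription start, were present in the RefSeq table of GRCh38.p14 for 3 of the 9 genes. The 3 genes were called lower than at t0 from P1 on, *TMEM30B* already at 36 h. Capitals mark the E2 box CAGGTG or its reverse complement CACCTG, and whether a repressor acts there was not tested. The window of *TMEM30B* (chr14:61281289-61281588, minus strand) holds 4 such boxes, that of *RAB25* (chr1:156060910-156061209, plus strand) holds 2, and that of the second listed start of *SPINT1* (chr15:40844227-40844526, plus strand) holds 1.
TMEM30B: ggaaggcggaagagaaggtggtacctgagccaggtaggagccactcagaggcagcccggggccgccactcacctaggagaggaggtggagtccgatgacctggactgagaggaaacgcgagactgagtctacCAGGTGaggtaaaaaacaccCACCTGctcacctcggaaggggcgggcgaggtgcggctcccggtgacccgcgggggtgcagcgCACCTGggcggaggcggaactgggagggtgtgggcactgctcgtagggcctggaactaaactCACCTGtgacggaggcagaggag
RAB25: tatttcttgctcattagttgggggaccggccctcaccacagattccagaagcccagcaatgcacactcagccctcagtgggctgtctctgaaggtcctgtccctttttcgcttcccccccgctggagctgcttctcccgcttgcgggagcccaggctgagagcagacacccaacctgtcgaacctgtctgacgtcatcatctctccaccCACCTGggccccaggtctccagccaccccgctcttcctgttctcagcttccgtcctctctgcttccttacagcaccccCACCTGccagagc
SPINT1: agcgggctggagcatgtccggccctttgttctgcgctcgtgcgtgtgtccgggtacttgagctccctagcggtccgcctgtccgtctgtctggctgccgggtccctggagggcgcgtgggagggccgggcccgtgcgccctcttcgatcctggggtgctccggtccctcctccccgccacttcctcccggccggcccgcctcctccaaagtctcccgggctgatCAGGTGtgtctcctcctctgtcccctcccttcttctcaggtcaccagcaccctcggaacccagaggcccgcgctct

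On both strands, 20.6% of the 35116 promoter windows in the table hold at least 1 such box, 3.49% hold 2 or more and 0.168% hold 4 or more. The first base of the boxes of *TMEM30B* lies at positions -118, -98, -35 and 28 from the start, and those of *RAB25* at -41 and 38. The window of the first listed start of *SPINT1* (chr15:40843798-40844097) holds none. The starts in RefSeq and in GENCODE are not the same: the RefSeq start of *TMEM30B* lies 502 bp and the second of *SPINT1* 459 bp downstream of the start of the GENCODE gene, so that these windows lie within the GENCODE genes, whereas the starts of *RAB25* coincide. The grainyhead-like motif AACCGGTT, which 0.134% of all windows hold, and its relaxed form AACNNGTT, which includes it and is in 3.52%, are in none of these windows. A match is a stretch of letters and not a binding site.

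The genes lie apart from each other on GRCh38. *ESRP1* and *GRHL2* are both on chromosome 8, *ESRP2* is at chr16:68229111-68238102, *EPCAM* at chr2:47345158-47387601, *RAB25* at chr1:156061160-156070514, *ST14* at chr11:130159562-130210376, *SPINT1* at chr15:40844018-40858207, *SPINT2* at chr19:38244035-38292614 and *TMEM30B* at chr14:61277370-61281840. *TMEM30B* lies with its whole 4471 bp on the opposite strand within *PRKCH*, 5355 bp of *SPINT2* lie opposite *PPP1R14A*, and 149 bp of *ESRP2* lie opposite *NFATC3*, which had a mean of 5117 expected counts over the libraries against 153 for *ESRP2*. The strand setting of the counting is not given in the sources used here, so reads from these overlapping genes could not be told apart.

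At t0 all 9 genes were expressed, at levels that differed widely between genes. On the per-length scale of TPM, *EPCAM* (238 ± 33.2 TPM, SD, n = 3) and *SPINT2* (212 ± 12.8) were the most abundant, followed by *ESRP1* (96.0 ± 10.9), *SPINT1* (70.2 ± 6.43) and *RAB25* (36.8 ± 2.81). *ESRP2* (22.8 ± 1.96), *ST14* (17.2 ± 1.68), *GRHL2* (10.75 ± 1.48) and *TMEM30B* (8.55 ± 1.45) were lower. The inhibitors were thus more abundant than the protease, and *ESRP1* more abundant than *ESRP2*, in each of the 3 libraries. The 9 genes summed to between 634.0 and 762.3 TPM in the t0 libraries.

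The main question was whether the EPI fractions keep the epithelial genes of t0. They did not: all 9 genes were called lower than at t0 in P5 EPI, against 8.2% of the 21995 genes tested, and all 9 were called lower in P8 EPI, against 8.28%. Calls required an adjusted p below 1%, at least a 2-fold difference, and an average of 100 or more normalized counts in the libraries compared. Each of the 9 was lower in 3 of 3 differentiations at both passages. The median log2 fold change of the set was -8.01 in P5 EPI and -7.77 in P8 EPI, where the medians over all genes tested were -0.003 and 0.023. Both comparisons use the same t0 libraries. In bulk RNA, fewer cells that express a gene and less RNA of it per cell cannot be told apart. The sum of the 9 genes fell to between 17.5 and 23.2 TPM in P5 EPI and was 34.7, 37.6 and 80.2 TPM from lowest to highest in P8 EPI.

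**Figure D1:**
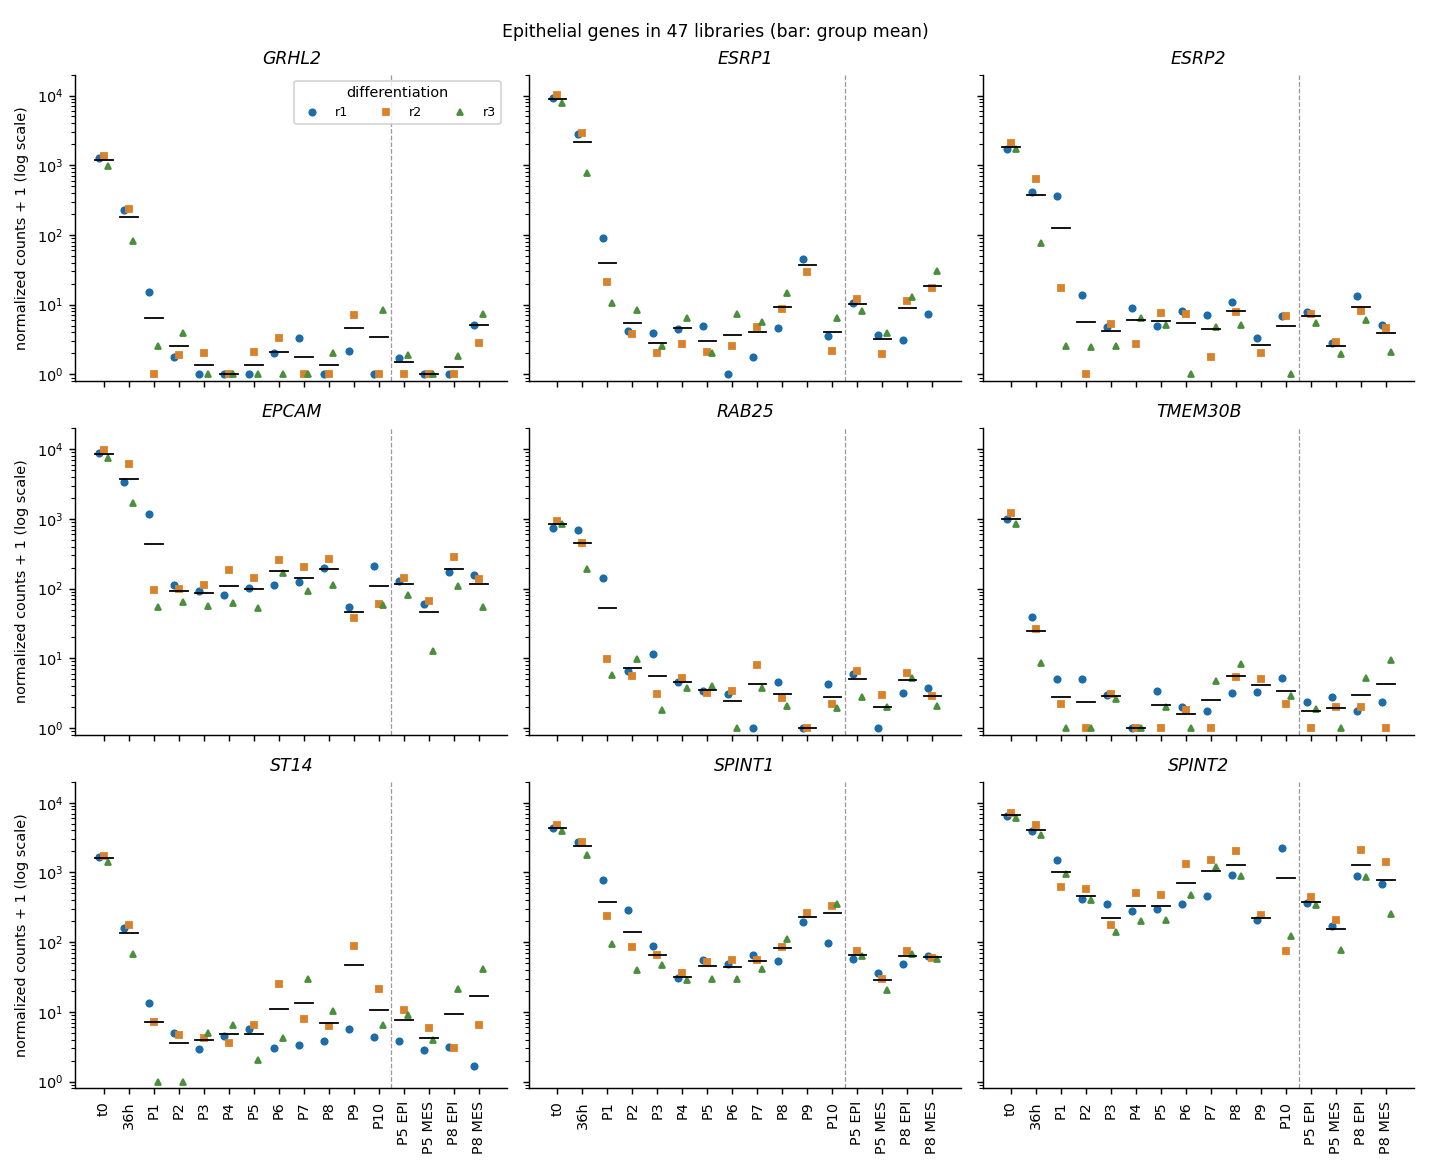
Normalized counts plus 1 of the 9 genes in each of the 47 libraries (log scale), by group, with 1 symbol per differentiation and a bar at the group mean. The dashed line separates whole cultures from fractions. All t0 libraries lie above all EPI libraries for every gene, and *SPINT2* keeps the highest level in both EPI fractions.

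Of the regulators, *GRHL2* had 1252, 1367 and 988 normalized counts in t0 r1, r2 and r3. It had 0.693, 0 and 0.877 in P5 EPI and 0, 0 and 0.844 in P8 EPI, which is at most 1 read in any of these libraries. With the floor of 3 reads per library, *GRHL2* was at least 509-fold lower in P5 EPI and at least 464-fold lower in P8 EPI than at t0. *ESRP1* fell from 9310, 10075 and 7743 normalized counts at t0 to 9.71, 11.1 and 7.02 in P5 EPI, which on the log2 scale was -9.85 ± 0.77 (SE from edgeR, adjusted p = 1e-11). In P8 EPI it had 2.16, 10.3 and 11.8 normalized counts, a log2 fold change of -10.11 ± 0.79 (adjusted p = 5.9e-12). *ESRP2* fell from 1726, 2061 and 1733 at t0 to 6.93, 6.34 and 4.39 in P5 EPI and to 12.3, 7.18 and 5.06 in P8 EPI, with log2 fold changes of -8.46 ± 1.04 and -8.06 ± 1.02. No EPI library reached any t0 library for these 3 regulators, and *ESRP1* and *ESRP2* both fell.

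Of the adhesion, trafficking and membrane genes, *EPCAM* kept a low level that was well above zero. It had 8825, 9592 and 7373 normalized counts at t0, 126, 141 and 80.7 in P5 EPI and 173, 287 and 109 in P8 EPI. The mean in P5 EPI was 1.35% and that in P8 EPI 2.21% of the t0 mean, with log2 fold changes of -6.23 ± 0.69 (adjusted p = 9.2e-09) and -5.60 ± 0.67 (adjusted p = 3.09e-08). *RAB25* had 735, 919 and 843 at t0 and between 1.75 and 5.55 in the 6 EPI libraries, with means 205-fold lower in P5 EPI and 217-fold lower in P8 EPI. In TPM its fall was smaller, with means of 36.84 at t0, 0.27 in P5 EPI and 0.28 in P8 EPI. *TMEM30B* had 978, 1214 and 836 at t0 and was at or under 2 reads in every P5 EPI library, at least 427-fold lower. In P8 EPI its libraries held 1, 1 and 5 reads.

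The protease and its inhibitors fell by unequal amounts. *ST14* had 1638, 1711 and 1418 normalized counts at t0, 2.77, 9.51 and 7.9 in P5 EPI and 2.16, 2.05 and 20.3 in P8 EPI. Its log2 fold changes were -8.01 ± 1.15 (adjusted p = 1.02e-06) and -7.76 ± 1.14 (adjusted p = 1.19e-06). *SPINT1* had 4339, 4822 and 3945 at t0, 56.9, 72.9 and 62.3 in P5 EPI and 46.9, 72.9 and 66.7 in P8 EPI, which is a fall of 68.3-fold and 70.3-fold between means. *SPINT2* had 6518, 7173 and 6120 at t0, 363, 440 and 340 in P5 EPI and 874, 2068 and 849 in P8 EPI. Its fall was the smallest of the 9 in both fractions, with log2 fold changes of -4.07 ± 0.75 (adjusted p = 4.17e-05) and -2.46 ± 0.70 (adjusted p = 0.0039). *SPINT2* alone made up 71.3% of the summed TPM of the 9 genes in P5 EPI and 85.2% in P8 EPI, against 29.7% at t0. The call of *SPINT2* in P8 EPI ended without r2 (adjusted p = 0.011), without r3 (adjusted p = 0.067) and without the replicate block (adjusted p = 0.01), with log2 fold changes between -2.84 and -2.26, and held without r1.

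**Figure D2:**
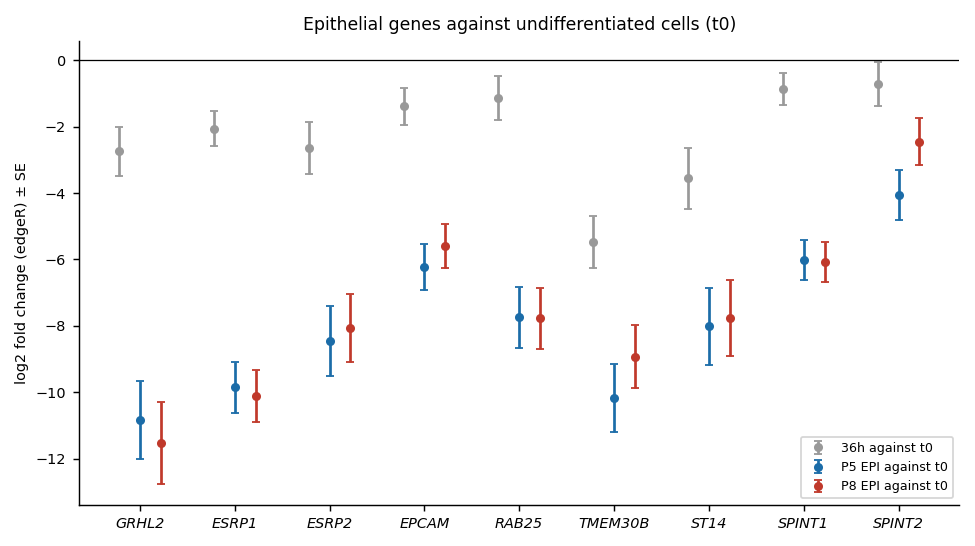
Log2 fold change against t0 (edgeR) with its SE for the 9 genes at 36 h and in the P5 and P8 EPI fractions, from 3 libraries per group. All values are below 0. *SPINT2* has the values nearest to 0 in the EPI fractions and *GRHL2* those farthest from 0, where its fitted value rests on at most 1 read per library.

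The time course asked when the genes fell. In the whole cultures, 2 libraries stood apart from their groups over all genes, P1 r1, which correlated better with the 36 h mean (Pearson r = 0.952 over 13297 genes) than with the other P1 libraries (0.878), and P10 r1, which correlated better with the P8 mean (0.981) than with the other P10 libraries (0.875). At 36 h, 3 of the 9 genes were called lower than at t0, against 1.83% of all genes tested, and 6 had an unadjusted p under 0.05, against 28.5%. From P1 on, all 9 were called lower at every time point, where the shares of all genes called lower were 5.85% at P1, 7.27% at P2, 8.05% at P3, 8.15% at P4, 8.25% at P5, 8.26% at P6, 8.22% at P7, 7.9% at P8, 9.82% at P9 and 8.93% at P10. No member was called higher at any time point, where the shares of all genes called higher were 1.58% at 36 h, 3.73% at P1, 6.25% at P2, 6.03% at P3, 6.32% at P4, 6.59% at P5, 6.82% at P6, 7.42% at P7, 8.08% at P8, 10.5% at P9 and 9.67% at P10. Thus 93 of 99 gene and time point pairs were called, all lower. The calls at P1 depended on the libraries: 5 of the 9 were called without r2, with *ESRP2*, *RAB25*, *SPINT1* and *SPINT2* not called, and 7 without r3, with *RAB25* and *SPINT2* not called, while all 9 had negative values in both. Over all genes, the 1287 lower calls at P1 became 455 without r2 and 710 without r3, the 1599 at P2 became 980 without r2, and the 402 at 36 h became 69 without r2 and 70 without r3. Of the higher calls, the 820 at P1 became 359 without r2 and 486 without r3. The 1374 higher calls at P2 became 847 without r2, and the 347 at 36 h became 108 without r2 and 107 without r3. At P6 to P10, a call of *SPINT2* or *ST14* also ended without 1 replicate at some time points, and that of *SPINT2* at P8 ended without the replicate block.

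*TMEM30B* had the largest fall of the 9 at 36 h. It had 38.1, 25.4 and 7.5 normalized counts at 36 h, a log2 fold change of -5.48 ± 0.78 against t0 (adjusted p = 1.01e-05). *ST14* had 156, 175 and 65.8 at 36 h (-3.55 ± 0.91, adjusted p = 0.0068) and *ESRP1* had 2827, 2898 and 761 (-2.06 ± 0.53, adjusted p = 0.00689). *GRHL2* (227, 233 and 81.6) and *ESRP2* (418, 641 and 76.6) missed the threshold at adjusted p = 0.0109 and 0.0186, although no 36 h library of either reached a t0 library. *EPCAM* (3352, 6032 and 1703), *RAB25* (700, 456 and 191), *SPINT1* (2754, 2743 and 1778) and *SPINT2* (3871, 4869 and 3453) were not called, with log2 fold changes between -1.39 and -0.72. The r3 library was the lowest of the 3 at 36 h for each of the 9 genes. The calls at 36 h depended on the libraries: each of the 3 ended without r2, those of *ESRP1* and *ST14* also ended without r3, that of *ESRP1* ended with DESeq2 (adjusted p = 0.023) and that of *ST14* without the replicate block (adjusted p = 0.015).

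Between 36 h and P1, 4 of the 9 were called lower, against 1.1% of all genes tested: *ESRP1* (-5.91 ± 0.66), *RAB25* (-3.39 ± 0.74), *EPCAM* (-3.23 ± 0.61) and *SPINT1* (-2.79 ± 0.52). The other 5 also had negative values, and all 9 had an unadjusted p under 0.05, against 26.1% of all genes. *GRHL2*, *ST14* and *TMEM30B* had adjusted p of 4.69e-04, 0.00526 and 0.00831 but means below 100 normalized counts over these libraries. In P1 r1, *EPCAM* still had 1159 normalized counts against 93.0 in r2 and 52.9 in r3, *ESRP2* had 355 against 16.1 and 1.58, and *RAB25* had 142 against 8.68 and 4.74. P1 r1 was also one of the 3 libraries with the smallest totals. No later step between consecutive time points called any of the 9 in edgeR, and at each of these steps 6, 7 or 8 of the 9 had a mean under the minimum of 100 and so could not be called. From P1 to P2, where 0.05% of all genes were called lower and 0.209% higher, 5 of the 9 had an unadjusted p under 0.05, against 4395 of the 21995 genes tested, and *ESRP2* had the smallest adjusted p (-4.19 ± 0.96, adjusted p = 0.0158). From P2 to P3, 0.0136% of all genes were called lower and 0.0409% higher, at the steps from P3 to P8 and from P9 to P10 0% were called, and 4 of the 9 had an unadjusted p under 0.05 at the step from P9 to P10, against 12.7% of all genes. At the steps from P2 to P8, none did but *TMEM30B* from P3 to P4, with a mean under 1 normalized count.

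After P2 no step was called for any of the 9, so the courses given here are a description of their values. *GRHL2* had no read in any P4 library and at most 8 reads in any whole culture from P2 on. *ESRP1* stayed between 0 and 13.6 normalized counts from P2 to P8 and had 43.7 and 28.4 at P9. *SPINT1* had its lowest mean at P4 (29.8, 34.6 and 27.4) and had 194 and 263 at P9 and 97.0, 331 and 346 at P10. *SPINT2* had 353, 178 and 141 at P3 and 922, 2017 and 888 at P8. It then had 206 and 241 at P9, a difference from P8 of -2.70 ± 0.85 on the log2 scale that was not called (adjusted p = 0.0289). Between P8 and P9, 5 of the 9 had an unadjusted p under 0.05, against 29.3% of all genes, and 0.973% of all genes were called lower and 1.68% higher.

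At P10, *SPINT2* differed widely between libraries. It had 2273 normalized counts in r1, the library that resembled P8, and 72.7 and 121 in r2 and r3. *EPCAM* had 211 in r1 against 58.4 and 56.7, whereas *SPINT1* had its lowest P10 value in r1. The call of *SPINT2* at P10 against t0 held with all 3 libraries and without r1, and ended without r2 (adjusted p = 0.015) and without r3 (adjusted p = 0.056). In TPM, t0 and then 36 h were the highest groups for each of the 9 genes, and t0 did not overlap 36 h for any of them. In the order of group levels below 36 h, neighbouring groups overlapped in their libraries for all 9 genes, with the exception of P9 and the group after it for *ESRP1*.

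The EPI and MES fractions were then compared to ask whether the genes that remained were held in the epithelial cells. At P5, where 8 of the 9 had a mean under the minimum of 100 and so could not be called, none of the 9 was called in edgeR, where 0.05% of all genes were called lower and 0.00909% higher in EPI, and none was called with DESeq2. In normalized counts, 5 of the 9 were higher in every P5 EPI library than in any P5 MES library, against 13.8% of all genes tested, whereas in TPM only 2 of the 9 were, *EPCAM* and *SPINT2*, against 14.7%. *EPCAM* had 126, 141 and 80.7 normalized counts in P5 EPI and 59.4, 66.1 and 11.6 in P5 MES (1.503 ± 0.602 log2, unadjusted p = 0.0179, adjusted p = 0.224). *SPINT2* had 363, 440 and 340 against 169, 207 and 77.4 (1.44 ± 0.70, unadjusted p = 0.0471), and *SPINT1* had 56.9, 72.9 and 62.3 against 35.1, 28.2 and 19.4 (1.26 ± 0.53, unadjusted p = 0.0244). *ESRP1* had 9.71, 11.1 and 7.02 against 2.7, 0.972 and 2.9 (2.04 ± 0.93, unadjusted p = 0.0356), and *ESRP2* had 6.93, 6.34 and 4.39 against 1.8, 1.94 and 0.968. *EPCAM*, *SPINT1*, *SPINT2* and *ESRP1* were the 4 of the 9 with an unadjusted p under 0.05, against 14.7% of all genes, and each was higher in EPI in 3 of 3 differentiations in normalized counts, while in TPM *ESRP1* and *SPINT1* were higher in 2 of 3.

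In the fits of the 12 fraction libraries alone, which were chosen after seeing the data, the P5 log2 differences were between 1.20 and 1.53 for *EPCAM*, *SPINT1* and *SPINT2*, with smaller errors. With a block for each differentiation within a passage, the adjusted p was 0.028 for *EPCAM*, 0.021 for *SPINT1*, 0.024 for *SPINT2* and 0.031 for *ESRP1*, which is above the threshold of 1%. Markers of cell types were read in the same fractions. The 5 markers of neuromesodermal progenitors (NMP) summed to between 23827 and 35548 normalized counts in P5 EPI and between 4531 and 12981 in P5 MES, and the 7 neural crest markers to between 3523 and 11571 in P5 EPI and between 17465 and 30473 in P5 MES. None of these 12 markers was called between the P5 fractions in edgeR. An unadjusted p under 0.05 was found for 0 of the 5 and 5 of the 7, against 14.7% of all genes. The replicate block of that fit spans t0 and all passages, and a marker not called in it can still differ. Over all genes it gave 11 lower and 2 higher calls, against 130 and 175 with the block within each passage. The paper reported *SOX9* and *SOX10* as significantly higher in P5 mesenchymal than epithelial cells. The part of these markers in the differences between fractions was not tested.

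At P8, none of the 9 was called between EPI and MES in edgeR or DESeq2, where 0% of all genes were called in either direction and 7 of the 9 had a mean under 100. In normalized counts, *ESRP2* was the only one of the set with every EPI library above every MES library (12.3, 7.18 and 5.06 against 4.17, 3.69 and 1.07), against 4.26% of all genes, and *GRHL2* was the only one below every MES library, against 4.37%, with at most 1 read in P8 EPI and 6, 1 and 6 reads in P8 MES. In TPM the libraries of both overlapped, and *RAB25* was the only one above every MES library, against 2.91% of all genes. With 3, 5 and 5 reads in P8 EPI and 4, 1 and 1 in P8 MES, the position of *RAB25* cannot be read. *GRHL2*, which passed the filter on low counts only through t0 and 36 h, had too few reads in the fractions for a test to be read. The same holds for *RAB25* and *TMEM30B*, with under 15 reads in each fraction library. None of the other genes of the set had an unadjusted p under 0.05 in edgeR, which 4.83% of all genes had, while *GRHL2* had 0.0233. *EPCAM* had 173, 287 and 109 in P8 EPI and 156, 135 and 53.6 in P8 MES, and *SPINT2* had 874, 2068 and 849 against 687, 1423 and 252. Both overlapped between the fractions and were higher in EPI in 3 of 3 differentiations in normalized counts, while in TPM *EPCAM* was higher in 2 of 3. *ESRP1* was lower in P8 EPI (2.16, 10.3 and 11.8) than in P8 MES (6.25, 16.6 and 28.9) in 3 of 3 differentiations. At P8 the summed neural crest markers overlapped between the fractions, from 7885 to 49619 in EPI and from 18984 to 64837 in MES. The summed NMP markers did too, from 10162 to 32317 in EPI and from 2935 to 22058 in MES. Of the 7 neural crest markers, 5 had negative and 2 positive values, and 2 had an unadjusted p under 0.05. Of the 5 NMP markers, 4 had positive values, and 0 had such a p. In 3 of 3 differentiations *SOX10* and *SNAI2* were lower and *SOX2* and *CDX2* higher in P8 EPI than in P8 MES.

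In the MES fraction from P5 to P8, where 0.0136% of all genes were called lower and 0.0409% higher, none of the 9 was called in edgeR, with 8 of the 9 at a mean under 100. *GRHL2*, *RAB25* and *TMEM30B* had under 15 reads in each fraction library, too few for their direction to be read. The other genes of the set had positive values. An unadjusted p under 0.05 was found for 4 of them, against 19.5% of all genes. These were *ESRP1* (2.85 ± 0.90), *SPINT2* (2.28 ± 0.71), *EPCAM* (1.38 ± 0.60) and *SPINT1* (1.122 ± 0.542). *GRHL2* had no read in any P5 MES library and 6, 1 and 6 reads in P8 MES (unadjusted p = 0.00828 in edgeR). Against t0, both MES fractions also had all 9 genes called lower, against 8.81% of all genes at P5 and 8.46% at P8, and none higher, against 7.52% and 8.95%.

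The difference between the fractions was tested for a change from P5 to P8. None of the 9 passed in edgeR or DESeq2, where 0% of all genes were called. *ESRP1* had an interaction of -3.11 ± 1.18 log2 (unadjusted p = 0.0129, adjusted p = 1). *GRHL2* (unadjusted p = 0.0498 in edgeR), *RAB25* and *TMEM30B*, with under 15 reads in each fraction library, were left out. Of the other genes, *ESRP1* alone had an unadjusted p under 0.05, against 1.99% of all genes. In normalized counts *ESRP1* was higher in EPI in all 3 differentiations at P5 (in 2 of 3 in TPM) and on both scales lower in all 3 at P8, with at most 14 reads in any EPI library and 27 in any MES library.

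**Figure D3:**
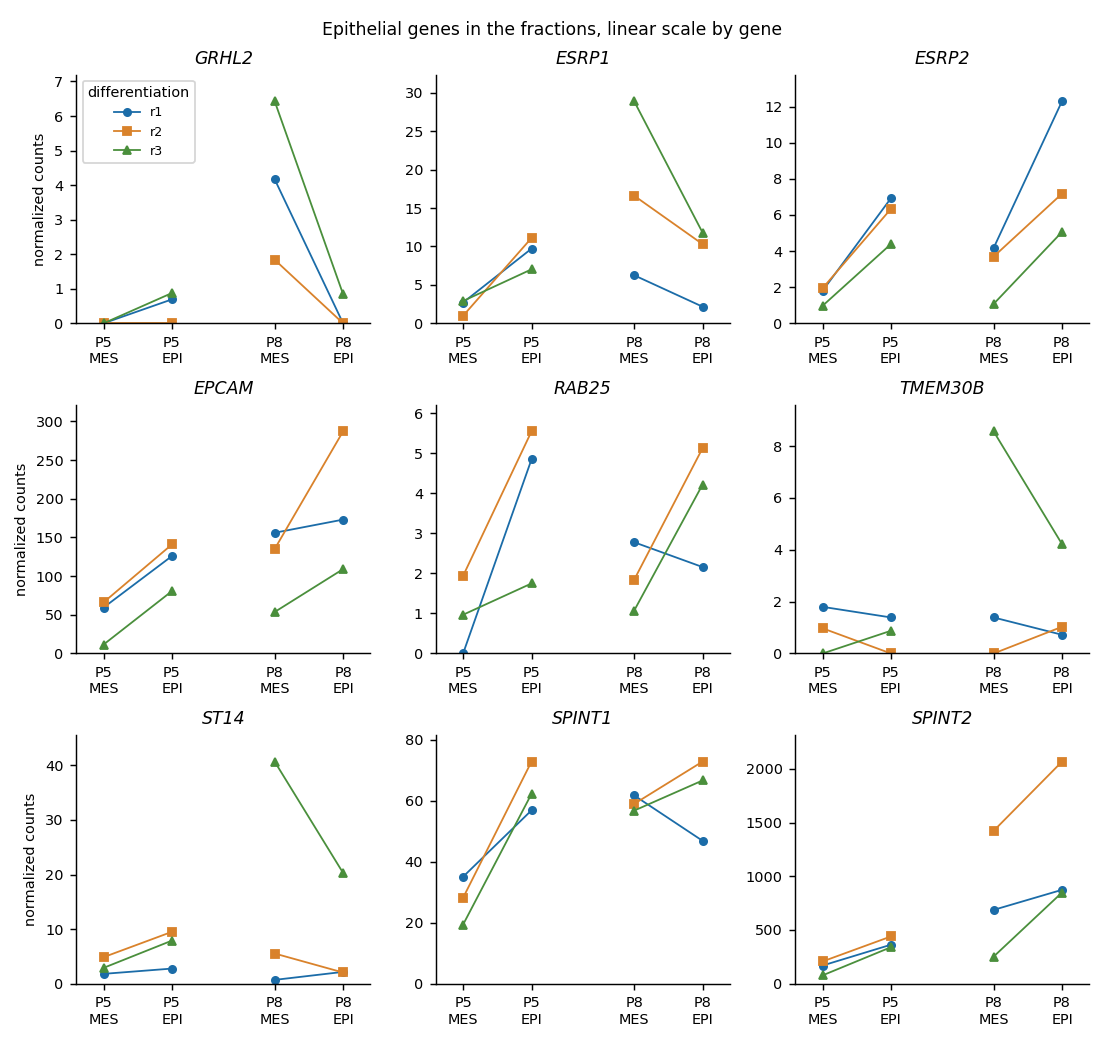
Normalized counts (linear scale, 1 scale per gene) of the 9 genes in the MES and EPI fractions at P5 and P8, with lines joining the fractions of 1 differentiation. In normalized counts at P5, the lines of *EPCAM*, *SPINT1*, *SPINT2*, *ESRP1* and *ESRP2* all rise from MES to EPI without overlap (in TPM those of *EPCAM* and *SPINT2* only). At P8 the lines of *EPCAM*, *SPINT2* and *ESRP2* rise and those of *ESRP1* fall. The lines of *GRHL2* also fall at P8, with at most 1 read in EPI, too few to be read.

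From P5 EPI to P8 EPI, none of the 9 was called in edgeR, where 0.00455% of all genes were called lower and 0.0227% higher, or in DESeq2, and 7 of the 9 had a mean under 100. In normalized counts *SPINT2* was the only one of the set with all P8 EPI libraries above all P5 EPI libraries, which 12.6% of all genes showed. In TPM, where 9.92% of all genes did, *TMEM30B* was so placed too, but at most 5 reads are too few for its position to be read. Of the 9 genes, *SPINT2* alone passed an unadjusted threshold of 0.05 in edgeR, which 19.6% of all genes did, with a log2 difference of 1.62 ± 0.69 (adjusted p = 0.184). *EPCAM* differed by 0.64 ± 0.57 and *SPINT1* by -0.05 ± 0.51, and the other 6 genes had means under 10 normalized counts over these libraries. In normalized counts *SPINT2*, *EPCAM* and *ESRP2* were higher in P8 EPI in 3 of 3 differentiations. In TPM *SPINT2* was so too, while *EPCAM* was higher in 2 of 3 and *ESRP2* in 1 of 3. Against the unfractionated culture of the same passage, none of the 9 was called in P5 EPI or P8 EPI in edgeR, where 0% of all genes were called. At P5, *ESRP1* and *SPINT1* had all EPI libraries above all whole-culture libraries in normalized counts, which 3.81% of all genes showed (in TPM *ESRP1*, *ESRP2* and *ST14*, against 4.04%). Of the 9, only *ESRP1* had an unadjusted p under 0.05 in edgeR (0.0343), which 0.777% of all genes had. At P8 every member overlapped between EPI and the whole culture, where in normalized counts 1.13% of all genes lay above and 1.43% below.

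Of the other grainyhead-like genes, *GRHL1* was lower than at t0 in both EPI fractions and *GRHL3* was higher in P8 EPI. *GRHL1* fell from 178, 150 and 214 normalized counts at t0 to 32.6, 29.3 and 29.8 in P5 EPI and 40.4, 32.8 and 42.2 in P8 EPI, and was called lower in both. *GRHL3*, known for its part in neural tube closure and in the surface barrier, had 22.8, 42.5 and 21.4 at t0 and 117, 96.6 and 91.2 in P5 EPI (1.92 ± 1.22 log2, adjusted p = 0.195). In P8 EPI it had 418, 6966 and 4701 normalized counts, a log2 fold change against t0 of 7.24 ± 1.44 (adjusted p = 9.22e-05), and was called higher, against 8.02% of all genes. *GRHL3* was higher in 3 of 3 differentiations, with r1 far below r2 and r3, and its call ended without r3 (6.66 ± 2.06, adjusted p = 0.016). The P8 MES libraries had 438, 4174 and 1051 and the whole P8 cultures 432, 6085 and 3712, so r1 was the lowest library in all 3 P8 groups. The window of the first listed start of *GRHL3* (chr1:24319107-24319406, plus strand) is shown because the gene was called higher in P8 EPI. It holds 2 E2 boxes, in capitals, with first bases at -21 and 10, and 3.49% of all windows hold 2 or more. The window of the second listed start of *GRHL3* (chr1:24322790-24323089) holds none. Whether a repressor acts at these boxes was not tested.
GRHL3: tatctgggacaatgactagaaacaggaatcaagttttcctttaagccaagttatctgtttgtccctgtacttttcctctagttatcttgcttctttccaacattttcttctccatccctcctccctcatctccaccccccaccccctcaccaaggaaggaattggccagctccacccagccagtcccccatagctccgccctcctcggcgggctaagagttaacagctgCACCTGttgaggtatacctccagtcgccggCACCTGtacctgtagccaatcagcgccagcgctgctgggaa

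**Figure D4:**
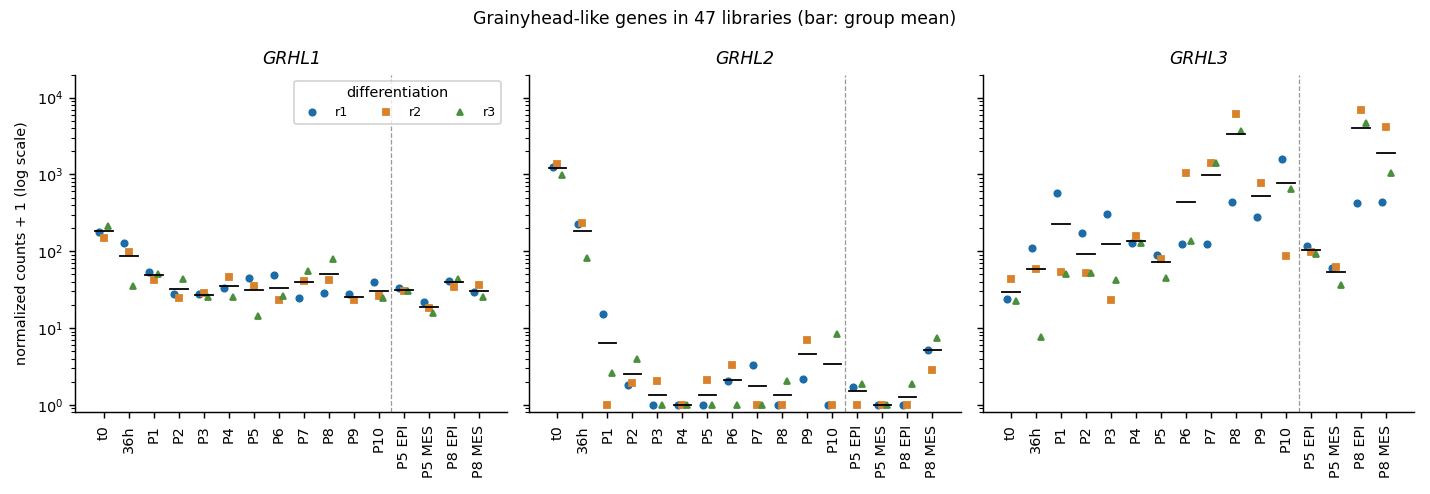
Normalized counts plus 1 (log scale) of *GRHL1*, *GRHL2* and *GRHL3* in the 47 libraries, by group, with a bar at the group mean. *GRHL2* drops to at most 8 reads from P2 on, while *GRHL3* reaches 6085 in P8 r2 and 6966 in P8 EPI r2.

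Lists of related genes, chosen with earlier results of these data known, were described by the same calls. Of 24 junction and polarity genes, 17 were called lower and 1 higher in P5 EPI, against 8.2% and 6.4% of all genes, and 16 lower and 1 higher in P8 EPI, against 8.28% and 8.02%, with medians of -3.98 and -2.58. The single gene called higher is a share below that of all genes. The same shares of all genes stand behind the counts of each list that follows. *CDH1*, the cadherin of the hESC epithelium, fell from 14228, 15592 and 11262 normalized counts at t0 to 4.85, 11.9 and 5.26 in P5 EPI and 10.8, 66.7 and 39.7 in P8 EPI, with log2 fold changes of -10.84 ± 0.95 and -8.52 ± 0.84. *CLDN7*, a claudin of tight junctions, was at or under 3 reads in every EPI library, at least 867-fold lower than at t0 in P5 EPI and at least 790-fold lower in P8 EPI. Genes of the list that were not called in P5 EPI included *DSC2*, *DSG2* and *JUP*, which encode desmosome proteins, the polarity gene *PALS1*, and *TJP1*, which encodes a scaffold beneath tight junctions. The desmosome linker *DSP* was the gene called higher (2.20 ± 0.45 in P5 EPI and 2.38 ± 0.45 in P8 EPI).

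Of 24 other epithelial genes, 13 were called lower and none higher in P5 EPI, and 12 lower and 1 higher, *GRHL3*, in P8 EPI, with medians of -4.39 and -3.39. *AP1M2*, the epithelial subunit of a clathrin adaptor, had log2 fold changes of -9.85 ± 0.76 and -8.999 ± 0.728. *OVOL2*, an epithelial zinc finger repressor, had 164, 169 and 151 normalized counts at t0, 3.47, 3.96 and 1.75 in P5 EPI and 10.1, 6.16 and 1.69 in P8 EPI, but its mean over the compared libraries was under the minimum of 100.

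Of 11 matriptase pathway partners tested, 6 were called lower in P5 EPI and 5 in P8 EPI and none higher, with medians of -3.89 and -3.77. *PRSS8* (prostasin), the protease that acts with matriptase, fell from 2488 ± 246 normalized counts at t0 to 6.32 ± 3.68 in P5 EPI and 1.89 ± 1.81 in P8 EPI. *HPN* (hepsin), another membrane protease inhibited by SPINT1 and SPINT2, had no read in any P8 EPI library, at least 182-fold lower than at t0. *MET*, the receptor of the growth factor that hepsin and matriptase can activate, had log2 fold changes of -2.73 ± 0.60 and -4.84 ± 0.66.

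*TMEM30A* and *RAB11A*, widely expressed relatives of the flippase and trafficking members, were not called, whereas other genes of their list were. Of 17 recycling and flippase partners, 6 were called lower and 1 higher in P5 EPI (all genes 8.2% and 6.4%) and 3 lower and 1 higher in P8 EPI (all genes 8.28% and 8.02%), with medians of -0.33 and -0.45. The 1 gene called higher is thus a share close to that of all genes, while the genes called lower are a larger share than that of all genes. *TMEM30A*, the widely expressed paralogue of *TMEM30B*, had 5728 ± 169 normalized counts at t0, 4678 ± 334 in P5 EPI and 6099 ± 1034 in P8 EPI, with log2 differences of -0.24 ± 0.10 and 0.12 ± 0.10. *RAB11A*, the widely expressed relative of *RAB25*, had 7960 ± 208 at t0 and 8374 ± 836 and 7506 ± 766 in the EPI fractions. Of the flippase genes themselves, *ATP8A2* had log2 fold changes of -3.28 ± 0.59 and -2.11 ± 0.56, and *ATP10D* was the 1 gene called higher (1.76 ± 0.33 and 2.17 ± 0.34).

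Of 20 other splicing regulators, 3 were called lower and 3 higher in P5 EPI (all genes 8.2% and 6.4%) and 6 lower and 3 higher in P8 EPI (all genes 8.28% and 8.02%), with medians of 0.02 and -0.05. *RBM47*, an RNA-binding protein of epithelial cells, had log2 fold changes of -7.20 ± 0.72 and -8.00 ± 0.75. *NOVA2*, a neuronal splicing factor, had -5.50 ± 1.06 and -3.68 ± 0.97. *RBFOX1*, another splicing factor of neurons, was called higher in P5 EPI (3.48 ± 0.93) and not in P8 EPI (2.44 ± 0.90, adjusted p = 0.0232). A list of 10 genes with exons known to respond to the ESRP proteins were tested for their own level, and none was called in either EPI fraction in edgeR, where 8.2% and 8.28% of all genes were called lower and 6.4% and 8.02% higher. An unadjusted p under 0.05 was found for 6 of the 10 in P5 EPI, against 54.7% of all genes, and for 4 of the 10 in P8 EPI, against 58.2%. *FGFR2* had 4914 ± 437 normalized counts at t0 and 3968 ± 1305 and 4442 ± 2747 in the EPI fractions.

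The files hold no isoform values, but RSEM's effective length of a gene, in bases, is weighted by the abundance of its isoforms. In P5 EPI, 3 of the 10 target genes had effective lengths that did not overlap those of t0, and in P8 EPI again 3, whereas 23.2% and 24% of the 13297 genes averaging 100 or more normalized counts did not overlap, so the share among targets was near that of all genes. *EXOC7* had 2155, 2132 and 2118 bases at t0 and 2250, 2327 and 2407 in P5 EPI. *RALGPS2* had 4917, 5136 and 5578 bases at t0, 4215, 3637 and 3996 in P5 EPI and 3941, 4287 and 4339 in P8 EPI. *ENAH* did not overlap in P5 EPI, and *CD44*, with a mean of 39.5 normalized counts in P5 EPI, did not in P8 EPI. *FGFR2*, *CTNND1*, *ARHGEF11*, *SCRIB*, *NUMB* and *SLK* overlapped with t0 in both fractions. Splicing itself was not measured by this value.

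Of 12 mesenchymal transition regulators and markers, 8 were called higher in P5 EPI, against 6.4% of all genes, and 10 in P8 EPI, none lower, with medians of 3.16 and 3.19. Of the 7 neural crest markers, 3 were called higher in P5 EPI and 5 in P8 EPI, none lower. They summed to 3977 to 4471 normalized counts at t0, 3523 to 11571 in P5 EPI and 7885 to 49619 in P8 EPI. The part of neural crest cells in these values was not tested. The repressor genes *ZEB1* (4.23 ± 0.29 and 4.31 ± 0.29) and *ZEB2* (4.51 ± 0.42 and 5.08 ± 0.43) rose in both. *ZEB1* had 233 ± 116 normalized counts at t0, 4189 ± 957 in P5 EPI and 4521 ± 1216 in P8 EPI. *SNAI2*, which also marks neural crest, rose by 5.11 ± 0.78 and 6.36 ± 0.82, whereas *SNAI1* differed by 0.27 ± 0.81 and -0.13 ± 0.82 and was not called. *PRRX1* (9.73 ± 0.93 and 10.09 ± 0.94) and *TWIST1* (8.44 ± 1.18 and 8.67 ± 1.19), regulators of mesenchyme, had the largest values of the list. The neural cadherin gene *CDH2* was called higher in both fractions (2.84 and 2.66 log2).

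**Figure D5:**
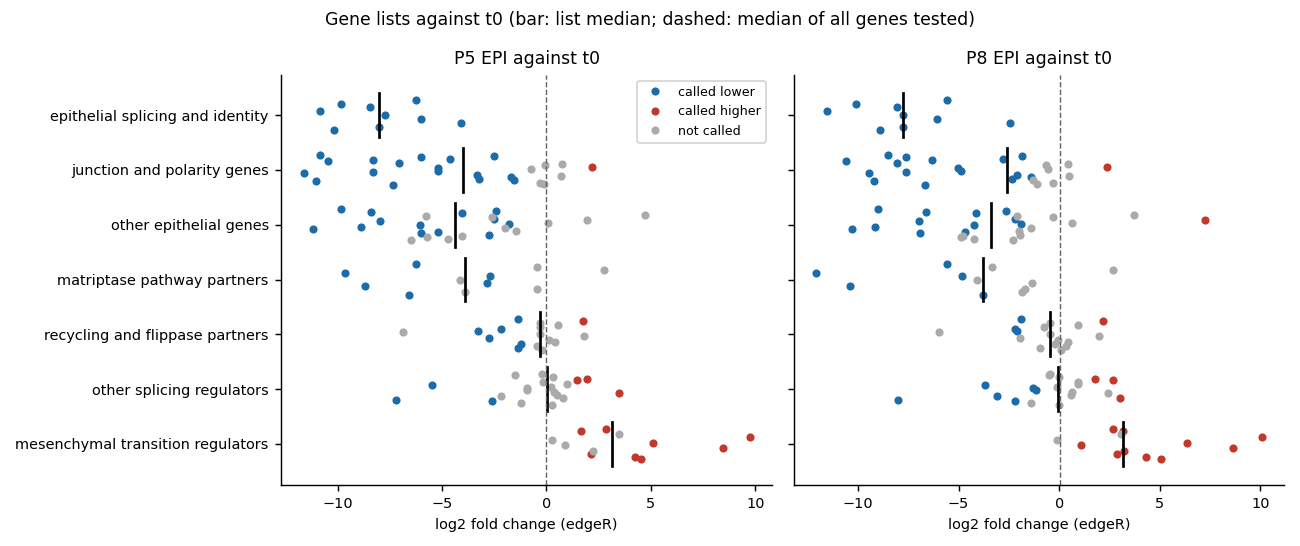
Log2 fold change against t0 (edgeR) of each gene in the 9-gene set and 6 related lists, for P5 EPI on the left and P8 EPI on the right. Points are genes, colored by call, bars are list medians and the dashed line is the median of all genes tested. The 9-gene set has the lowest median and the mesenchymal list the highest. The medians of the recycling and splicing lists lie near 0, with genes far from 0 on both sides.

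The 9 genes shared much of their profile. Over the 16 group means of log2 CPM, the 36 pairwise Pearson correlations ran from 0.74, for *SPINT1* with *SPINT2*, to 0.98, with a median of 0.90, as a description of points that share libraries and the same drop after t0. The 5 genes outside the set, of 13291 ranked, with a profile most like the mean of the 9 were *PPP1R35* (r = 0.985), *AP1M2* (0.985), *SCNN1A* (0.984), *TESMIN* (0.984) and *ARHGEF4* (0.980). *SCNN1A*, an epithelial sodium channel subunit, had means of 3302 normalized counts at t0, 3.32 in P5 EPI and 2.89 in P8 EPI, whereas *PPP1R35* had 847, 277 and 282 and so kept a larger share of its level.

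Markers of other cell types were read in the same libraries. The 5 hESC markers summed to between 128121 and 134250 normalized counts at t0, to between 655 and 1344 in P5 EPI and to between 121 and 413 in P8 EPI. *SOX2*, which marks hESCs and neural progenitors alike, was not called against t0 in either EPI fraction (-0.03 and -0.42 log2), and *CDX2*, a caudal progenitor gene, was called higher in both (10.64 and 9.36). Of 6 surface ectoderm markers, 3 were at or under 3 reads in every P5 EPI library and 2 in P8 EPI, with sums from 92.9 to 264 and from 77.2 to 253, against 9.52 to 22.8 at t0. Of 6 definitive endoderm markers, 3 were at or under 3 reads in both EPI fractions, with sums from 1040 to 1222 and from 938 to 2465 against 83.3 to 182 at t0, and of 6 nephric epithelium markers 3 and 2 were, with sums from 178 to 612 and from 52 to 95.4 against 35.2 to 51.9. The 7 markers of amnion and trophoblast summed to between 3344 and 7062 in P8 EPI, 1148 and 1748 in P5 EPI and 279 and 374 at t0, with 3 of the 7 at or under 3 reads in P8 EPI and 2 in P5 EPI. Most of that sum was *TFAP2C*, while *CGA* and *GABRP* had at most 1 read in any EPI library. The part of these cell types in the levels of the 9 genes was not tested.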

How the data were processed

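The data were single-end polyA RNA-seq libraries. Per the labels, the submitters' processing notes name cutadapt 1.16, STAR 2.5.2b, RSEM 1.3.0 and GRCh38. The strand setting and annotation release are not given in the sources used here. The authors deposited, for each library, RSEM expected counts per gene (estimated counts, not normalized), TPM values and effective lengths in bases (other). Of the deposited expected counts, 9.33% were not whole, and they were rounded for testing. Gene names and positions came from GENCODE 29, which held 57447 of the 58051 listed genes. Library totals ran from 13029491 to 64082859 counts, with a median of 47292229, and P6 r3, P4 r3 and P1 r1 were the smallest, which limits genes with few reads there.

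One edgeR quasi-likelihood fit (edgeR 4.0.16, R 4.3.3) over 47 libraries and 16 groups used TMM factors, filterByExpr (21995 genes) and the replicate number of the differentiation as a block, with Benjamini-Hochberg adjustment over all genes tested. This fit was chosen here, while the thresholds of a call follow those the study gives for DESeq2. Adjusted p-values are from edgeR unless another tool is named. SEs are the log2 fold change over the square root of F. Normalized counts are TMM-scaled counts. Floors of 3 counts per library cover counting error only. Same-numbered EPI and MES fractions deviated together from their group means (mean correlation 0.653 at P5 and 0.78 at P8 over 13297 genes), as fractions of 1 culture, whereas those of t0 and the EPI fractions did not (-0.014 and 0.011). For same-numbered P5 EPI and P8 EPI libraries the mean correlation was 0.362. No pair of replicates matched within sampling noise.

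The 9 genes and all lists were chosen with earlier results of these data known. Named genes were the 9, up to 4 called genes per list with the largest fold change, a fixed set (*CDH1*, *GRHL1*, *GRHL3*, *OVOL2*, *PRSS8*, *TMEM30A*, *ZEB1*, *ZEB2*, *SNAI1*, *SNAI2* and the ESRP targets) and the 5 genes most alike. Others, such as *DSP*, *RAB11A*, *CDH2* and single marker genes, were named after their values were seen. Alternatives were DESeq2 1.42.0, no block, other size factors, filters and thresholds, fewer groups, and leaving out libraries. The comparison of fractions in TPM was chosen after seeing the data. The limit of 15 reads per fraction library was not part of the design of the tests. One gene of the junction list is not reported here by name.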

Additional observations from a re-analysis of the deposited data

How the results depend on the processing

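All 9 genes were called lower in P5 EPI than at t0 under each of the alternatives run. In P8 EPI 8 or 9 were, the exception being *SPINT2* without the replicate block, without r2 and without r3, as given above. The calls of the time course numbered 93 of 99, with 92 in DESeq2, 91 without the replicate block and between 82 and 95 when a replicate was left out (82 without r2, 85 without r3). None of the 9 was called between EPI and MES or between P5 EPI and P8 EPI under the alternatives run, the one without the mean minimum included; under the others, 7 or 8 of the 9 were below that minimum and could not be called. At 36 h, *ESRP2*, *GRHL2*, *EPCAM* and *RAB25* were called under some alternatives, among them the fit without the 3 smallest libraries for the first 3 (adjusted p = 0.0016, 0.0051 and 0.0054) and that without r1 for *RAB25* (adjusted p = 0.0037). The difference of *SPINT1* between P8 EPI and P8 MES, 0.09 on the log2 scale, was 0.24 without replicate 1, -0.02 without replicate 2 and -0.03 without replicate 3.

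As a percentage of the t0 mean, levels in TPM and in normalized counts differed by more than the SD between replicates for *ESRP1* in P5 EPI (0.163% and 0.103%), *ESRP2* in P5 EPI (0.776% and 0.32%), *RAB25* in P8 EPI (0.769% and 0.461%), *ST14* in P5 EPI (0.813% and 0.423%), *SPINT2* in P5 EPI (6.78% and 5.77%) and *TMEM30B* in P8 EPI (0.468% and 0.197%). They differed by over 1.5 times, within that SD, for *ESRP1* in P8 EPI (0.208% and 0.0894%), *GRHL2* in P5 EPI (0.124% and 0.0435%) and *RAB25* in P5 EPI (0.733% and 0.487%); the cause was not tested.

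Counts over all genes between P5 EPI and P5 MES moved by more than 1.5 times from 11 lower and 2 higher. They were 79 and 28 in DESeq2, 72 and 34 at an FDR under 5% and 21 and 3 without the fold minimum. They were 12 and 4 without the 3 smallest libraries, 11 and 1 without the count filter and 1 and 0 without r1. A fit of the 12 fraction libraries alone gave 130 and 175 with a block within each passage and 0 and 0 with the plain replicate block. Counts were also 0 and 0 in the compared groups alone, without the replicate block, without r2 and without r3. Between P8 EPI and P5 EPI they moved from 1 lower and 5 higher to 38 and 199 in DESeq2, 41 and 209 at an FDR under 5%, 133 and 325 without r1, 3 and 23 with RLE size factors, 2 and 25 with a minimum of 1 CPM, 4 and 19 without the 3 smallest libraries, 6 and 43 in the 12 fraction libraries, and 0 and 0 in the compared groups alone, without the replicate block, without r2 and without r3. At 36 h the 402 lower calls became 267 without the replicate block, 644 at an FDR under 5% and 628 without r1. Without the fold minimum they became 658, and the 347 higher calls became 781. Those at 36 h, P1 and P2 without r2 or r3 are given above. Against t0, dropping the fold or mean minimum raised the counts in P5 EPI from 1803 lower to 2919 and 3151, and in P8 EPI from 1822 to 3253 and 3100. In the fractions, *GRHL2*, *RAB25* and *TMEM30B* had under 15 reads in each library, and *ESRP1*, *ESRP2* and *ST14* at most 27, 17 and 38.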
